A study of Mus musculus with 3 samples.

Results

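The genes described here build the mouse epidermis and its cornified surface. They are the keratins Krt5, Krt14, Krt1, Krt10 and Krt2, the envelope and filament-binding proteins Lor, Flg and Ivl, the cross-linking enzyme Tgm1 and the desmosomal cadherin Dsc1. Their UniGene clusters, which are groups of sequences from 1 gene, were found by the gene description in the deposited tables or by exact match of their tags to reference transcripts. The 10 genes were carried by 11 clusters of 20595 in the tables. Krt1 had 2 clusters, 1 of them found by its description alone, with tags from the opposite strand.

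Whole skin was taken from C57BL/6 males aged 2 months, in 3 groups with 1 library each. All mice had been depilated 9 days before the drug, which brings the hair follicles into growth. The day 0 group received no treatment. The day 1 and day 2 groups were sampled 1 and 2 days after cyclophosphamide, an alkylating anticancer drug, given into the peritoneum at 150 mg/kg ("mg/km" in the labels of the samples). The sources used here do not give the number of mice behind a library. No untreated skin of days 1 and 2 was compared, so the drug and the time since depilation cannot be told apart. With 1 library per group there is no replicate check: every interval and test below covers the counting of tags in these libraries and compares libraries, not conditions. In whole skin, fewer cells of a type and less RNA per cell cannot be told apart.

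Epidermal cells are born in the basal layer, where Krt5 and Krt14 pair into filaments. On leaving that layer they switch to Krt1 and Krt10 (spinous layer). In the granular layer they make loricrin, filaggrin and involucrin, which transglutaminase 1 and its relatives fix into the cornified envelope beneath the cell membrane. Involucrin, transglutaminase 1 and desmocollin 1 are also known from the inner root sheath, a cornifying layer of the growing hair follicle, so whole skin reads them from both structures.

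In this assay a transcript is cut at its CATG sites and read as a tag of 21 bases that begins with CATG, so each gene's level rests on the few short sequences that were captured. For the members other than Dsc1, the tag of the gene's own strand with most copies is shown here, with the unlisted Krt14 tag nearest the 3′ end, the minor Krt10 tag whose course differed, and the leading tag of the cluster described as Krt1, from the opposite strand. Capitals mark the CATG, and site numbers count from the 3′ end of the GENCODE M21 transcript.
Krt5 site 1: CATGttctttggtgacccaga
Krt14 site 3: CATGcagctggcccagatcca
Krt14 site 1, not listed: CATGctgctcaggcttaggag
Krt1 site 10: CATGcaagacctggtggaaga
Krt1 opposite strand: CATGtttggccttgatggaaa
Krt10 site 1: CATGagaaaccaatacgaaca
Krt10 site 2: CATGgcaactcaagccagcga
Krt2 site 1: CATGaacaccaagctgtccct
Lor site 2: CATGaatttgcctgaggtttc
Flg site 1: CATGtgttccccttggacttt
Ivl site 1: CATGaagtgcagtgaagccaa
Tgm1 site 1: CATGtcaaggagagtgggcag

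The tags lay in different parts of the transcripts (GRCm38). Those of Krt5 (chr15:101707194-101707214, minus strand), Flg (chr3:93293570-93293590, plus strand), Ivl (chr3:92571244-92571264, minus strand) and Lor (chr3:92080425-92080445, minus strand) were in the 3′ UTR. Those of Krt10 (chr11:99387279-99387299, minus strand, exon 4 of 8), Krt2 (chr15:101813124-101813144, minus strand, exon 7 of 9) and Tgm1 (chr14:55704862-55704882, minus strand, exon 13 of 15) were in coding sequence and were still the CATG nearest the 3′ end. Dsc1, on chromosome 18, was also led by its site 1, in the 3′ UTR. Levels below are tags per 1000000 (CPM) after TMM scaling of the libraries, with 95% Poisson intervals.

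**Figure D1:**
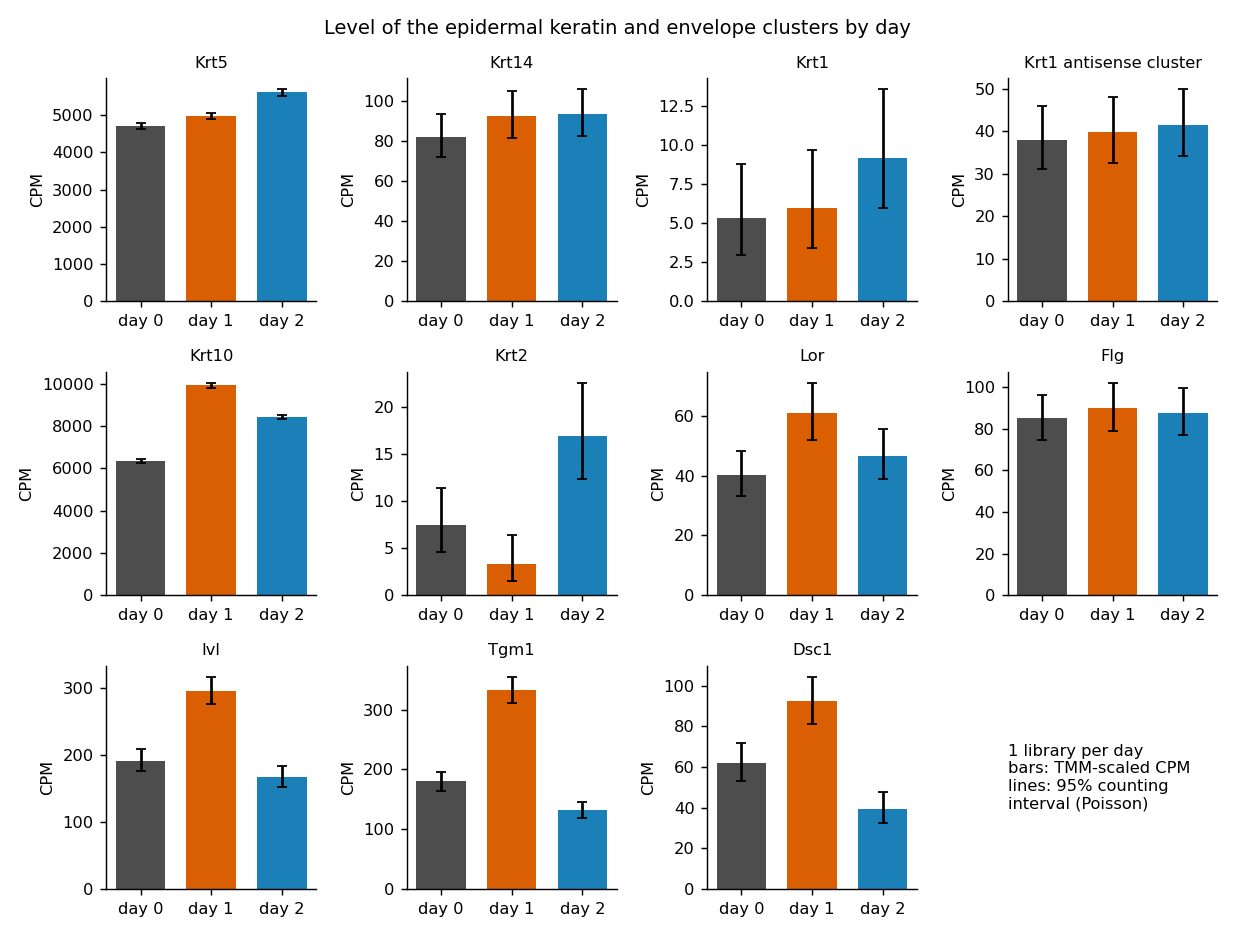
Level of each of the 11 clusters in TMM-scaled tags per 1000000 (CPM, vertical axes from 0) on day 0, day 1 and day 2; bars are the single library of each day and lines are 95% Poisson counting intervals. Tgm1, Ivl and Dsc1 stood highest on day 1 and lowest on day 2, while Krt2 was lowest on day 1 with 9 tags and highest on day 2 with 46.

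Between day 1 and day 2 the members went different ways. Tgm1 and Dsc1 fell and Krt2 rose, while the Krt14, Flg and Krt1 clusters had intervals that included 0. A cluster was called when the exact conditional binomial test gave an adjusted p (Benjamini-Hochberg over 13812 clusters) of 0.001 or less and the ratio was at least 2-fold. By that rule 1 of the 11 clusters was called higher and 2 lower on day 2 than on day 1, beside 1.82% higher and 1.13% lower over all clusters tested. No member was called for day 1 over day 0, where 1.54% of all clusters were called higher and 1.39% lower. Nor was any member called for day 2 over day 0, beside 3.44% higher and 3.08% lower over all clusters. All 11 clusters held enough tags to be tested, and the 3 comparisons share libraries.

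With a fold minimum of 1.5 in place of 2, Krt10, Ivl and Tgm1 were called higher on day 1 than on day 0, and 0 members lower. The shares of all clusters were 4.2% and 3.76%. With scaling by all kept tags, Krt10 (log2 ratio 0.57) and Ivl (0.55) were under 1.5-fold there, and Tgm1 (0.81) was not. For day 2 over day 1, Krt2 was called higher and Tgm1, Dsc1 and Ivl lower at that minimum, beside 3.49% and 3.18%. It called 0 members in either direction for day 2 over day 0, beside 5.78% higher and 6.24% lower. Among the 6279 clusters at 20 CPM or more the shares at 1.5-fold were 8.41% higher and 7.26% lower for day 1 over day 0. They were 10% and 12% for day 2 over day 0, and 5.97% and 6.51% for day 2 over day 1. The median log2 ratio of the 11 clusters for day 1 over day 0 was 0.17, with 10 ratios above 0, and that of all clusters tested was -0.02. For day 2 over day 0 the medians were 0.19 and 0.01, with 8 of the members' ratios above 0. For day 2 over day 1 the members' median was -0.04 and that of all clusters -0.02. The 11 include the Krt1 cluster of opposite-strand tags, at 0.06, 0.13 and 0.06 in the 3 comparisons as ordered here. The members' medians are thus not medians of the 10 genes' own strands. All are medians of counts from single libraries, given as a description.

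**Figure D2:**
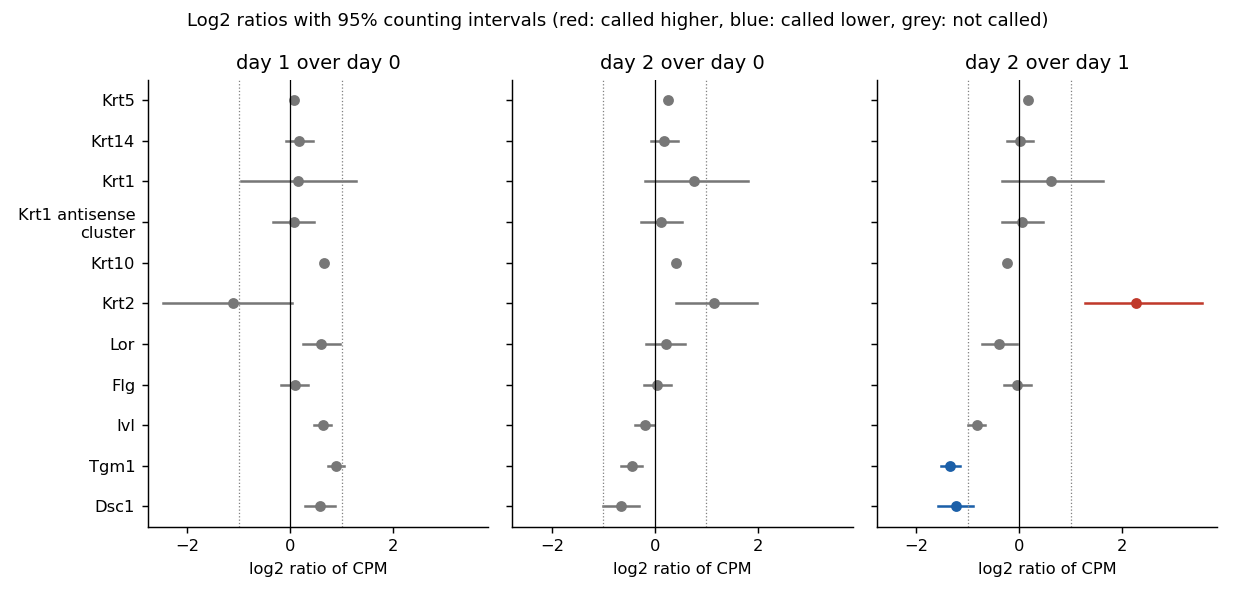
Log2 ratio of CPM for the 11 clusters (rows) in the 3 comparisons (panels); points are the ratios, lines 95% counting intervals and dotted lines a 2-fold ratio. Between day 1 and day 2, Krt2 lay to the right at 2.27 and Tgm1 and Dsc1 to the left at -1.34 and -1.23; the other points lay inside the dotted lines there.

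Of the basal pair, Krt5 encodes the type II keratin. Its cluster held 13255 tags on day 0, 13377 on day 1 and 15263 on day 2, which is 4712, 4974 and 5606 CPM. With TMM scaling the order of the 3 levels followed the days, and the neighbouring 95% intervals did not overlap. The log2 ratio was 0.08 (0.04 to 0.11) for day 1 over day 0 and 0.25 (0.22 to 0.28) for day 2 over day 0, well under the 2-fold minimum. With scaling by all kept tags these ratios were 0.004 and 0.29, so the step from day 0 to day 1 depends on the scaling.

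Krt14 encodes the type I partner of Krt5. Its cluster held 231, 249 and 255 tags, at 82.1, 92.6 and 93.7 CPM on days 0, 1 and 2. The 3 levels differed by less than their counting intervals, and the log2 ratios were 0.17 (-0.09 to 0.44) on day 1 and 0.19 (-0.07 to 0.45) on day 2 over day 0. These tags came from 4 of the 12 CATG sites of the transcript, and sites 1 and 2, the nearest to the 3′ end, were listed in no cluster of any table, although their tags match no other gene in GENCODE M21. Site 1 lies in the 3′ UTR at chr11:100203283-100203303 (minus strand), 142 bases from the transcript end. The site that led was site 3, in coding exon 6 of 8 at chr11:100204261-100204281, with 75.3% of the tags on day 0, 71.9% on day 1 and 71.0% on day 2. Over 12008 named clusters tested, the leading site was the 3′-most one in 63.2%, and site 1 was not listed in 21.87%. The count of Krt14 is therefore a count of upstream sites, and its shares with other keratins, given further on, are shares of the tags listed and not of the transcripts.

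Krt10 encodes the type I keratin of the spinous layer and carried the most tags of the members. Its cluster held 17833 tags on day 0, 26723 on day 1 and 22980 on day 2, which is 6339, 9936 and 8441 CPM. Day 1 was highest and day 2 lay between, with no overlap of the intervals. The log2 ratio was 0.65 (0.62 to 0.68) for day 1 over day 0, 0.41 (0.38 to 0.44) for day 2 over day 0 and -0.24 (-0.26 to -0.21) for day 2 over day 1.

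A minor tag of Krt10, at site 2, did not follow the main tag. Site 1 held 17541, 26536 and 22552 copies, between 98.1% and 99.3% of the cluster. Site 2, in coding exon 1 and 1543 bases from the transcript end, held 270, 163 and 416 copies. It was lowest on day 1, where site 1 was highest, at a log2 ratio of -0.66 (-0.95 to -0.38) for day 1 over day 0 and 1.33 (1.07 to 1.604) for day 2 over day 1. Site 3, with 22, 24 and 12 copies, was at 0.19 (-0.71 to 1.09) and -0.99 (-2.15 to 0.04) in the same comparisons, with the signs of site 1 and intervals that included 0. The cause of the difference between sites 1 and 2 was not tested.

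**Figure D3:**
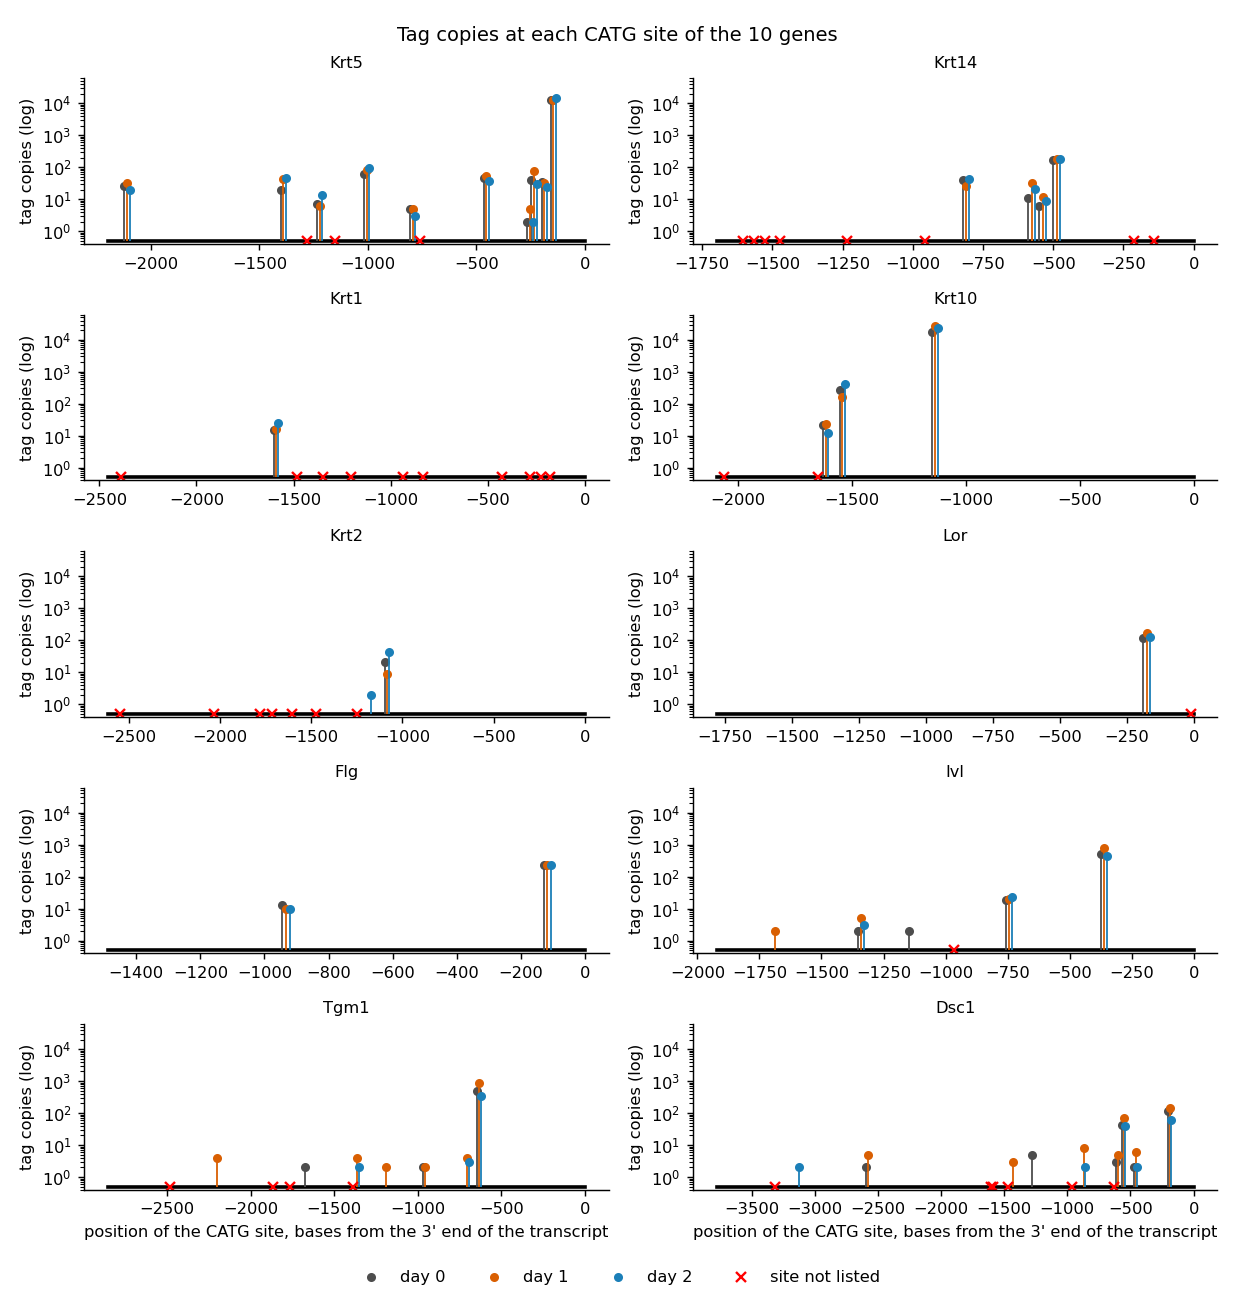
Tag copies (log axis) at each CATG site of the 10 genes, placed by distance in bases from the 3′ end of the transcript (black line) with the 3 days drawn side by side; red crosses are CATG sites with no tag listed in the gene's cluster. Most genes were carried by the site nearest the 3′ end, Krt14 and Krt1 were not, and the site of Lor nearest the end leaves 8 bases of tag.

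Krt1 encodes the type II partner of Krt10 and was almost absent from the tables on its own strand. Its only sense tag, at site 10 of 11 in coding exon 2 (chr15:101848956-101848976, minus strand), was listed under a cluster described as a keratin 2p gene. The tag matches Krt1 exactly and the nearest tag of Krt76, the gene of that description, with 1 mismatch. It held 15, 16 and 25 tags, or 5.33, 5.95 and 9.18 CPM, with overlapping intervals. Sites 1 to 9 and 11 were not listed in any cluster, so Krt1 could not be followed at the depth of its partner.

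The cluster described as Krt1 held 107, 107 and 113 tags, at 38.03, 39.8 and 41.5 CPM. All 5 of its tags match the opposite strand of Krt1, and their site numbers are those counted along the reversed transcript. The leading one, at chr15:101845849-101845869 (plus strand, opposite exon 9), had 77, 80 and 85 copies. The log2 ratio of the cluster was 0.06 (-0.34 to 0.47) for day 1 over day 0, and -0.01 with scaling by all kept tags. The origin of these tags was not tested.

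Krt2 encodes the type II keratin of the upper epidermal layers and pairs with Krt10. It held 21 tags on day 0, 9 on day 1 and 46 on day 2, which is 7.46, 3.35 and 16.9 CPM. Day 1 was lowest and day 2 highest, and the interval of day 2 lay above those of both other days. The log2 ratio of day 2 over day 1 was 2.27 (1.29 to 3.55), called higher (exact test, adjusted p 7.4e-06). The ratios over day 0 were -1.12 (-2.47 to 0.03) on day 1 and 1.16 (0.40 to 2.00) on day 2, neither called. Of the 46 tags of day 2, 44 were at site 1.

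Loricrin, the product of Lor, is the main protein of the cornified envelope. All its tags were at site 2, because site 1 lies 8 bases from the transcript end and cannot give a whole tag. It held 113, 164 and 127 tags, at 40.2, 61.0 and 46.6 CPM. Day 1 was highest, and its interval overlapped that of day 2 but not that of day 0. The log2 ratio was 0.60 (0.25 to 0.96) for day 1 over day 0 (exact test, adjusted p 0.0043) and -0.39 (-0.73 to -0.04) for day 2 over day 1 (exact test, adjusted p 0.1), neither called.

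Filaggrin, the product of Flg, bundles keratin filaments and is later broken down into the amino acids that hold water in the surface. Its cluster held 239, 242 and 239 tags, at 85.0, 90.0 and 87.8 CPM. The 3 levels lay within each other's intervals, with log2 ratios of 0.08 (-0.18 to 0.35), 0.05 (-0.22 to 0.31) and -0.04 (-0.30 to 0.23) for day 1 over day 0, day 2 over day 0 and day 2 over day 1. The last was 0.08 with scaling by all kept tags. The 3′ UTR tag carried 226, 230 and 229 copies, and a tag in the coding sequence 13, 10 and 10.

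Involucrin, the product of Ivl, is an early scaffold of the envelope. Its cluster held 539 tags on day 0, 796 on day 1 and 455 on day 2, which is 192, 296 and 167 CPM. Day 1 stood apart from both other days, whose intervals overlapped. The log2 ratio was 0.63 (0.47 to 0.79) for day 1 over day 0 and -0.82 (-0.99 to -0.66) for day 2 over day 1. The adjusted p values were 1.4e-13 and 2.6e-21 in the exact test, and both ratios were under the 2-fold minimum.

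Tgm1 encodes the membrane-bound transglutaminase that cross-links the envelope. Its cluster held 506 tags on day 0, 895 on day 1 and 358 on day 2, which is 180, 333 and 131 CPM. The 3 intervals did not overlap, with day 1 highest and day 2 lowest. The log2 ratio was 0.89 (0.73 to 1.05) for day 1 over day 0 and -0.45 (-0.65 to -0.25) for day 2 over day 0. For day 2 over day 1 it was -1.34 (-1.52 to -1.16), called lower (exact test, adjusted p 8.1e-53). Site 1 alone, with 502, 879 and 353 copies, gave -1.33 (-1.52 to -1.15).

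Desmocollin 1, the product of Dsc1, joins the cells of the upper layers at desmosomes. Its cluster held 174 tags on day 0, 248 on day 1 and 107 on day 2, which is 61.9, 92.2 and 39.3 CPM, again with day 1 highest, day 2 lowest and no overlap. The log2 ratio for day 2 over day 1 was -1.23 (-1.57 to -0.90), called lower (exact test, adjusted p 5.8e-13). The ratios over day 0 were 0.57 (0.29 to 0.86) on day 1 and -0.65 (-1.02 to -0.30) on day 2, neither called. Its tags were more spread than those of the other members, with 119, 149 and 62 copies at site 1 and 43, 72 and 39 at site 3. Both sites were lower on day 2 than on day 1, at -1.28 (-1.73 to -0.85) and -0.89 (-1.50 to -0.32).

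These 3 calls rest on counting error alone. When a biological coefficient of variation of 0.2 between animals was assumed (edgeR exact test, threshold 0.05), the adjusted p for day 2 over day 1 was 0.0505 for Krt2, 0.148 for Tgm1 and 0.316 for Dsc1, and no member was called.

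The summed level of inner root sheath markers was highest on day 1 and lowest on day 2, as were Tgm1, Ivl and Dsc1. Of 10 sheath genes 9 were listed, and their summed level was 43846 CPM on day 0, 64571 on day 1 and 26462 on day 2. For day 2 over day 1, 7 of the 9 were called lower, beside 1.13% of all clusters, with a median log2 ratio of -1.14. Krt25, a sheath keratin, was at -1.58, the lowest of the list. Tchhl1, also of the list, went the other way at 0.10 (0.01 to 0.19), with 576, 710 and 761 CPM on days 0, 1 and 2. Krt74 was not listed. Hair shaft keratins, 12 of 15 listed, summed to 8145, 13045 and 8618 CPM, and 5 outer root sheath and stress keratins to 2386, 4540 and 3588 CPM. The part of the follicle in the levels of Tgm1, Ivl and Dsc1, or of the other members, Krt5 and Krt14 among them, was not tested.

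The summed levels of other skin cell types differed between the libraries as well. Of the muscle list 13 of 14 genes were listed, and they summed to 12688, 19626 and 25629 CPM. Myh4, a fast muscle myosin with 20, 73 and 54 tags, was called higher on both days over day 0. Its log2 ratio for day 2 over day 1 was -0.45 (-0.99 to 0.07), while the sum rose. Of the macrophage list 7 of 10 genes summed to 257, 274 and 581 CPM and 4 of 6 red cell genes to 1799, 1600 and 141 CPM. Of the 7 macrophage genes, 3 ratios were above 0 and 4 below for day 1 over day 0. For day 2 over day 0, 6 were above and 1 below, with 4 called higher. The 10 fibroblast genes summed to 11747, 9783 and 12806 CPM, mostly from Sparc at 8576, 7691 and 9186 CPM. Sebaceous gland genes summed to 1053, 971 and 1305 CPM. Neither list moved as 1: for day 2 over day 0, 8 fibroblast ratios were above 0 and 2 below, and 5 sebaceous ratios were above and 4 below. The 7 adipocyte genes summed to 4270, 3012 and 2572 CPM, mostly from Fabp4, a fatty acid carrier, at 3346, 2197 and 1708 CPM. The genes of the list went different ways: Plin4, Lep and Cfd had ratios above 0 on both days over day 0, and Lep, the gene of leptin, was called higher on day 2 over day 0 at 1.66 (0.88 to 2.57). The part of these changes in the members' levels was not tested.

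**Figure D4:**
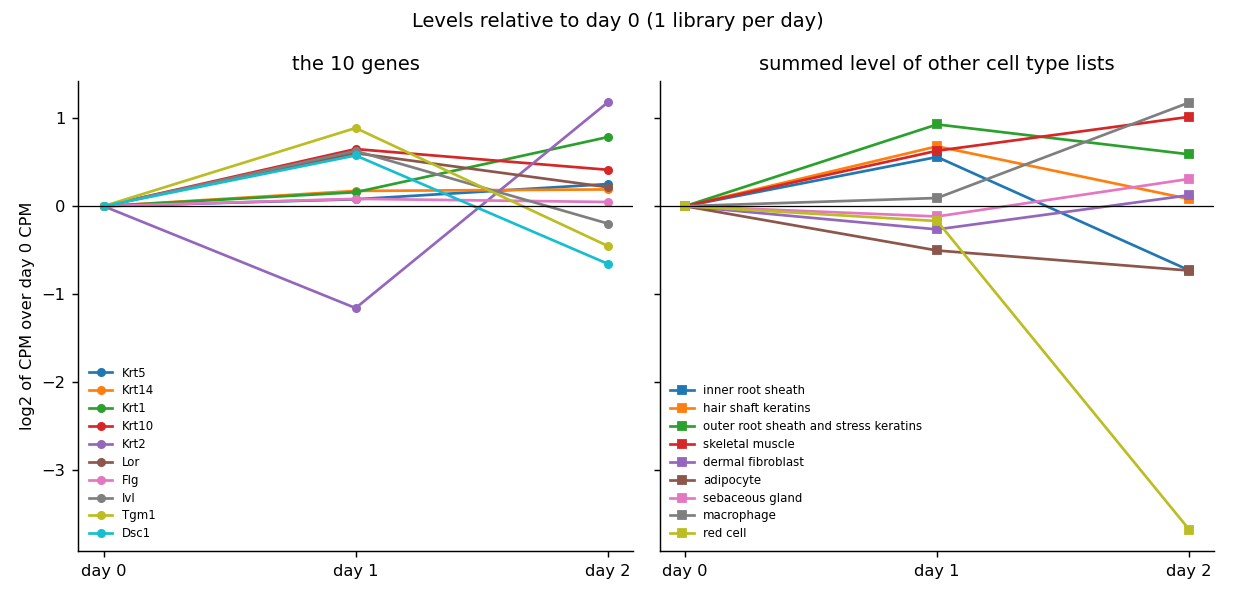
Log2 of the level over that of day 0 for the 10 genes (left) and for the summed level of 9 lists of other cell types (right), 1 library per day. Tgm1 and Dsc1 were above 0 on day 1 and below 0 on day 2, as was the inner root sheath sum, at 64571 CPM on day 1 and 26462 CPM on day 2.

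The share of one keratin in a pair was followed across days, since the pair is read from the same library. The pair of Krt10 with Krt5 was added after the values were seen. Krt10 made up 57.4% (56.8 to 57.9, Wilson 95%) of the tags of Krt10 and Krt5 on day 0, 66.6% (66.2 to 67.1) on day 1 and 60.1% (59.6 to 60.6) on day 2. The intervals of the 3 days did not overlap. Whole skin holds both follicle and epidermis, and the part of each in this share was not tested. Krt10 made up 98.7% (98.5 to 98.9) of its tags with Krt14 on day 0, 99.1% (99.0 to 99.2) on day 1 and 98.9% (98.8 to 99.0) on day 2, and the intervals of days 0 and 1 did not overlap. Krt5 made up 98.3% of its tags with Krt14 on day 0, 98.2% on day 1 and 98.4% on day 2, with overlapping intervals. Both shares count Krt14 without its sites 1 and 2 and so do not give the balance of the transcripts. Krt2 made up 0.118%, 0.0337% and 0.1998% of its tags with Krt10, lowest on day 1. Lor made up 0.630%, 0.610% and 0.550% of its tags with Krt10, within counting error. Krt1 was under 0.2% of its tags with either Krt5 or Krt10 on each day.

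Other genes of the same layers were read from lists, called by the same 2-fold rule. The shares over all clusters are those given above. Of 16 basal layer genes, 8 had ratios above 0 and 8 below on day 1 over day 0, with a median log2 ratio of 0.00. In that comparison 2 were called higher and 0 lower. Among them was Lama3, which encodes a laminin chain of the basement membrane, at 23.5 CPM on day 0 and 51.7 on day 1. On day 2 over day 0, 12 ratios were above 0 and 4 below, with a median of 0.34, and 3 genes were called higher and 0 lower. The genes called higher included Lama3 at 1.01 and Itgb4, an integrin subunit of hemidesmosomes, at 1.83 (1.58 to 2.09). Itgb4 went from 59.0 CPM on day 0 to 84.0 on day 1 and 210 on day 2. Krt15, a basal keratin, had 614, 1037 and 949 CPM and was not called. Nor was Trp63, a transcription factor of the basal layer, at 454, 402 and 414 CPM.

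Among envelope precursors, 25 of 42 listed genes had tags and 22 were tested. Sprr1b, a small proline-rich envelope protein, rose on day 1 from 90.6 to 184 CPM and fell on day 2 to 80.8 CPM. Its log2 ratios were 1.02 (0.80 to 1.24) and -1.18 (-1.42 to -0.95), the first at 0.94 and not called with scaling by all kept tags. It was the sole call of the list in each of those comparisons. On day 2 over day 0, 2 genes were called higher, Sprr4 at 1.83 and Lce3a at 2.12, and 1 lower, Lce1i at -1.15. These 3 had few tags, with 13 and 46 for Sprr4, 7 and 31 for Lce3a and 81 and 35 for Lce1i. The medians of the list were 0.45, 0.11 and -0.09 for day 1 over day 0, day 2 over day 0 and day 2 over day 1.

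The plakins and the other abundant envelope proteins were not called. Evpl, a plakin of the envelope scaffold, had 260, 404 and 287 CPM, and its partner Ppl had 304, 510 and 341 CPM, both highest on day 1. Krtdap had 2913, 2405 and 2267 CPM, and Flg2, a relative of filaggrin, had 363, 245 and 342 CPM, lowest on day 1. Evpl and Ppl thus had the order of days of Lor and Krt10.

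Of the 4 other suprabasal keratins tested, Krt23 fell on day 2 over day 1 at -1.08 (-1.27 to -0.89), or -0.96 and not called with scaling by all kept tags. Krt77, a keratin encoded beside Krt1 on chromosome 15, had 2415, 2416 and 1244 CPM. Its ratio for day 2 over day 1 was -0.96 (-1.02 to -0.90), under the 2-fold minimum. Its sites differed, with 5761, 4629 and 2397 copies at site 1 and 712, 1508 and 665 at site 5, so that the even total of days 0 and 1 was a sum of a lower and a higher site. Krt80 had 588, 1071 and 649 CPM.

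Among 25 cross-linking, processing and barrier enzymes tested, Padi3, which converts arginine to citrulline in trichohyalin and filaggrin, fell on day 2 over day 1 from 702 to 269 CPM, at -1.39 (-1.51 to -1.26). It was the sole call of that comparison. Tgm5, another transglutaminase, rose on day 2 over day 0 from 12 to 47 tags, at 1.97 (1.08 to 3.07). Tgm3 had 228, 316 and 191 CPM and was not called, with the order of days of Tgm1. Klk7, a protease that sheds surface cells, had 737, 672 and 1157 CPM. The median of these enzymes for day 2 over day 1 was -0.44, with 17 ratios below 0 and 8 above.

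Of 11 desmosome genes, not all of them suprabasal, 0 were called for day 2 over day 1, the comparison in which Dsc1 fell. There 9 ratios were below 0, and the 2 above were Dsc3 (0.17), the desmocollin of the basal layers, and Dsg3 (0.55). Dsg1a, the cadherin partner of Dsc1, had 465, 541 and 477 CPM. Jup, which encodes plakoglobin, fell on day 2 over day 0 from 979 to 453 CPM, at -1.11 (-1.21 to -1.02). Of 31 regulators of differentiation, 0 were called higher on day 2 over day 1 and 3 were called lower. These were Ovol1, a transcription factor, at -1.12, Sfn, which encodes 14-3-3 sigma, at -1.10 and Tfap2c at -1.08, of which Sfn (-0.99) and Tfap2c (-0.96) were not called with scaling by all kept tags. Tfap2c was also at -0.80 and not called by its leading site. On day 2 over day 0, Gata3 (-1.07) and Tfap2c (-1.04) were called lower. Gata3, which the inner root sheath also expresses, was at -0.60 and not called by its 3′-most site. Tfap2c was also not called there with scaling by all kept tags. Among the calls of these lists, Itgb4 on day 2 over day 0 alone was also made with an assumed coefficient of variation of 0.2.

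**Figure D5:**
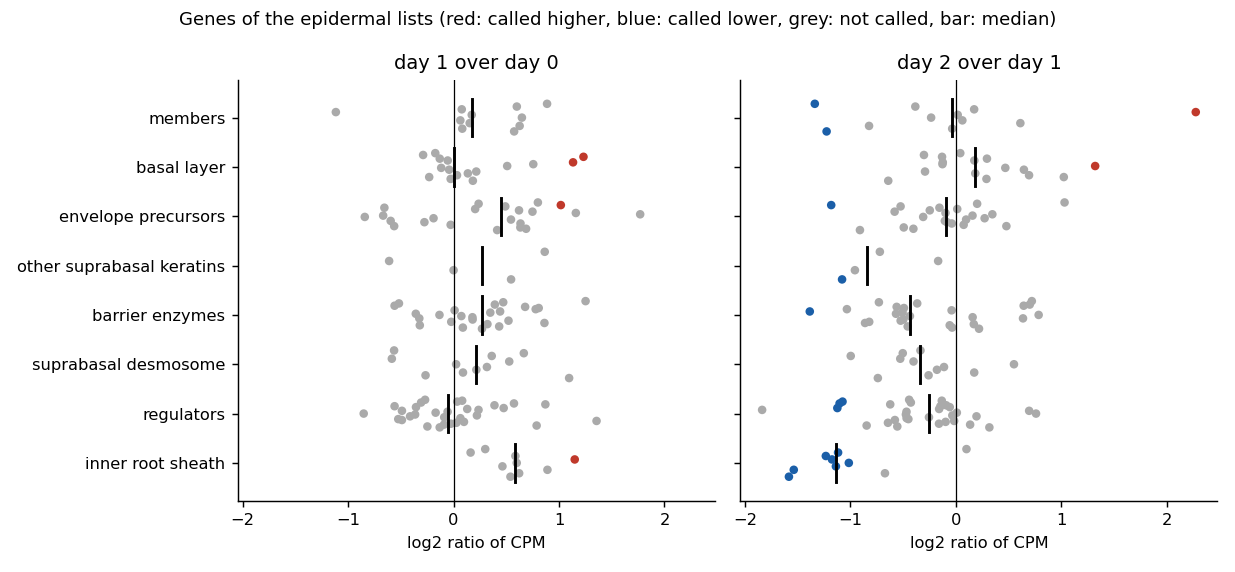
Log2 ratios of the genes of 8 lists (rows) for day 1 over day 0 (left) and day 2 over day 1 (right); each point is a gene in 1 library per day, bars are medians, red points were called higher and blue points lower. In the right panel 7 of 9 inner root sheath genes were called lower, against 2 of the 11 member clusters.

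The genes whose course over the 3 libraries was nearest to that of Krt10, by distance between log2 profiles over 1523 candidates at 100 CPM or more, were Map4, Vcp and Sf3b4. Map4 had 169, 261 and 221 CPM. The nearest to Krt5 were Dsc3, the desmocollin of the basal layers, Zfp91 and Rac1, and Dsc3 had 472, 502 and 566 CPM. With 3 libraries such a ranking is a description.

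The start regions of 3 members are shown because Lor, Flg and Ivl, neighbours in the epidermal differentiation complex on chromosome 3, had unlike courses. RefSeq windows (GRCm38.p6) were held for 8 of the 10 genes, and the start meant below is that of RefSeq. The window of Krt14 begins inside the gene as GENCODE annotates it. That of Flg ends inside it, since the GENCODE gene starts at chr3:93273523. In the 250 bases before the start, searched on both strands, TATAAA (the TATA box) was found in 4 of the 8 windows and in 13.0% of 27025 promoters. TGANTCA, the letters bound by AP-1 factors, was found in 3 of the 8 and in 6.87% of promoters. The last 120 bases before the start are printed with these motifs in capitals, for Flg at chr3:93273426-93273545 (plus strand), Ivl at chr3:92573736-92573855 (minus strand) and Lor at chr3:92083143-92083262 (minus strand). The motifs do not overlap each other.
Flg: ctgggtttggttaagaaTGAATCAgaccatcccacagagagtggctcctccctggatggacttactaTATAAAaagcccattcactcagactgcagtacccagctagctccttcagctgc
Ivl: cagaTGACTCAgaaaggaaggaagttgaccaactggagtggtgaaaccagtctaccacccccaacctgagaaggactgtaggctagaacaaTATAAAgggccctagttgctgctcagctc
Lor: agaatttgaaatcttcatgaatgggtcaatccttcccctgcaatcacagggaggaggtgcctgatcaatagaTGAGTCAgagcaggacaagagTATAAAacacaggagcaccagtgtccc
All 3 windows hold both motifs, at 48 to 116 bases before the start for the first base of TGANTCA. The first base of TATAAA was at 27 to 53 bases, the 53 being that of Flg. These distances count from the RefSeq start, and those of Flg are shorter from its GENCODE start. No difference in position between the promoters is read from them. On day 1 over day 0 the log2 ratios were 0.08 (-0.18 to 0.35) for Flg and 0.63 (0.47 to 0.79) for Ivl. That of Lor was 0.60 (0.25 to 0.96), an interval that overlapped that of Flg, and none was called at 2-fold. The part of these motifs in the courses was not tested. A match of letters is a description of the sequence and not a measured binding site.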

How the data were processed

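Tags were made by cutting oligo(dT)-primed double-stranded cDNA at CATG and sequencing 17 further bases, per the labels' protocols. Per the file headers, the authors deposited for each UniGene cluster a count of tags, the same as TPM (tags per 1000000 of all tags the authors kept), and each tag's copy number, TPM and CATG site number. The sources used here do not give the aligner, the mismatches allowed or the build. Each table had 2636804 to 2859653 tags, 45.3% to 47.11% of the tags kept, with no copy number under 2. The TPM values served only as an alternative scaling.

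Tags were matched to GENCODE M21 transcripts, and a cluster was named where 1 gene held 80% or more of its matched tags and 50% or more of its total. Library sizes were scaled by TMM (edgeR 4.0.16, factors 1.03, 0.94 and 1.03). Clusters with 15 or more tags over the 3 libraries were compared by a two-sided exact conditional binomial test (scipy 1.17.1). The code was run on simulated counts with Poisson error alone, which cannot show how the test behaves with variation between animals. Log2 ratios carry a pseudocount of 0.5 tags, and their 95% intervals are Clopper-Pearson. PCR copies are not independent molecules, so intervals cover counting error only. edgeR's quasi-likelihood test could not be fitted with 1 library per group. Alternatives were 3 other scalings (1 by DESeq2 1.42.0 size factors), 3 ways of counting tags, no minimum on tags, other fold minimums and pseudocounts, and edgeR's exact test with an assumed variation of 0.2 or 0.4.

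The members and the gene lists were chosen with earlier results of these data known. Named from each list were the called genes and up to 4 with the largest ratios at 20 CPM or more; of other cell types, the summed level was named, and 3 genes were named by nearest course. Krtdap, Flg2, Trp63, Tgm3, Dsg1a, Krt25, Tchhl1, Myh4, Sparc, Fabp4, Plin4, Lep and Cfd fall outside this rule and were chosen after their values were seen. Of the called genes, 1 is not reported here.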

Additional observations from a re-analysis of the deposited data

Results flagged for a closer look

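A tag from the strand opposite Krt1 was listed outside the clusters compared above. It stood in a cluster described as the predicted gene Gm4362, which has no other tag, and among GENCODE M21 transcripts (GRCm38) it matches only the opposite strand of Krt1 exon 2 at chr15:101848973-101848993 (plus strand). It held 98 copies on day 0, 187 on day 1 and 211 on day 2, or 34.8, 69.5 and 77.5 CPM, all above the limit that a count of 0 allows. The log2 ratio was 0.99 (0.64 to 1.36) for day 1 over day 0 and 1.15 (0.80 to 1.51) for day 2 over day 0. It starts at the same CATG as the sense tag of Krt1 site 10, which held 15, 16 and 23 exact copies. The origin of the tag was not tested.
Gm4362 opposite strand of Krt1: CATGttcttcagctcagaatc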

How the results depend on the processing

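No paired analysis was possible because each group has 1 library. With an assumed variation of 0.2 or 0.4 (edgeR exact test), the count of members called for day 2 over day 1 went from 1 to 0 higher and from 2 to 0 lower. With a fold minimum of 1.5, the count called higher for day 1 over day 0 went from 0 to 3. Among these, Krt10 (0.57) and Ivl (0.55) were under 1.5-fold with scaling by all kept tags. Of 348 member ratios under an alternative, 335 kept their direction and side of the threshold, 6 were no longer called, 4 were newly called and 3 changed sign. The 3 were the Krt1 antisense cluster on day 1 over day 0 (-0.0095) and Flg on day 2 over day 1 (0.0812), both with scaling by all kept tags, and Krt14 on day 2 over day 1 by its leading site (-0.0015). Scaling by all kept tags moved the median of all clusters by 0.11 for day 2 over day 1. By leading sites, Krt10's share with Krt14 was 99.02%, 99.33% and 99.20% on days 0, 1 and 2, and Krt5's was 98.68%, 98.65% and 98.81%, since fewer Krt14 tags enter. Counting 3′-most sites alone gave no value for Krt14, either Krt1 cluster or Lor. Krt2 and the sense tag of Krt1 had under 50 tags per library, so their counting intervals are wide. For Krt1, site 10 was the only one listed of 11, and whether depth or the sequences used for listing set this was not tested.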
